A study of Mus musculus with 5 samples.

Results

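The genes described here encode the proteins of the cytoplasmic ribosome. They were taken by symbol from nuclei of the mouse central amygdala (CeA): every gene named Rpl or Rps followed by a digit, together with Rplp0, Rplp1, Rplp2, Rpsa and Fau, without the Rps6k kinases and without pseudogenes. The rule found 88 of the 22532 genes in the files. Of these, 46 encode proteins of the large subunit and 32 proteins of the small subunit. The other 10 carry a matching symbol but are paralogs, retrogenes or binding partners: Rpl10l, Rpl22l1, Rpl36al, Rpl39l, Rpl3l, Rpl7l1, Rps19bp1, Rps23rg1, Rps27l and Rps27rt. All 88 were found in the mouse gene annotation, and their median length from first to last base, introns included, was 4066.5 bases.

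The ribosome is built from a large and a small subunit, each a shell of proteins around ribosomal RNA. The proteins are made in the cytoplasm, carried into the nucleolus for assembly and exported again as part of the subunits. Their mRNAs are short and abundant, and most begin with a run of pyrimidines, the 5′ terminal oligopyrimidine (TOP) motif, through which the TOR kinase pathway adjusts their translation to the supply of nutrients. Most of these mRNA molecules lie in the cytoplasm, so RNA read from isolated nuclei holds a small part of them.

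The study compared feeding states by single-nucleus RNA sequencing on the 10x Chromium 3′ platform, with 5 libraries, each a pool of CeA tissue from 1 male and 1 female mouse. Fed 1 and fed 2 were C57BL6 mice at 8 weeks of age on normal feeding, and the study's methods give C57BL/6NRj as its wild-type strain. Fed 3 was also on normal feeding, but came from Htr2a-Cre mice at 12 weeks, in which a bacterial artificial chromosome transgene drives Cre and an injected AAV-DIO-mCherry virus labels the Cre-bearing cells. Fasted 1 and fasted 2 were C57BL6 mice at 8 weeks that went without food for 20 and 21 hours. By the study's supplement, its fed and fasted datasets numbered 1 shared a batch of nucleus preparation and library construction, as did those numbered 2. Fed 1 with fasted 1, and fed 2 with fasted 2, are taken to be these pairs by their replicate numbers. Fed 3 is taken to be the library the study describes as alone in its batch. Its genotype, age, virus and batch therefore cannot be told apart.

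The start of many of these genes carried a sequence feature known for them, and a few starts are shown because the feature was more frequent among the subunit genes than among all genes. RefSeq promoter sequences of GRCm38.p6 were matched for 68 of the 88 genes, 58 of them subunit genes. The 5 letters CTTTC, a short form of the pyrimidine run, stood within 50 bases on either side of the annotated start on the gene's own strand in 32 of 58 subunit genes (55.2%). The same letters stood there in 13.2% of the 16797 genes of the files with a promoter sequence. On the other strand the shares were 10.3% and 12.3%. The motif was chosen after the promoters had been looked at, and a match is a description of these letters, not of a working start site. In the 7 genes shown, the first base of the match lay at position -32 (Rps21) to 32 (Rpl35a) from the annotated start, nearest in Fau at 7. The lines below give 30 bases around the match in these genes, which the results return to. They run 5′ to 3′ on the gene's strand, with CTTTC in capitals.
Rpsa, chr9:120127776-120127805, plus strand: cggccgcccgtcCTTTCgcgctacccgggg
Fau, chr19:6057941-6057970, plus strand: ccacttcttcctCTTTCttgactccatctt
Rpl13, chr8:123102327-123102356, plus strand: gacgtcacttccCTTTCgcctgattttgat
Rpl5, chr5:107900498-107900527, plus strand: cctacagccactCTTTCtcacgtcgcttgc
Rps21, chr2:180257405-180257434, plus strand: acgagctacttcCTTTCtgcgctctcgctg
Rpl35a, chr16:33056472-33056501, plus strand: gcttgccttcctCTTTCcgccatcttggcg
Rpl37, chr15:5116629-5116658, plus strand: gtggcgggggtgCTTTCtcttccggtctct

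The 5 libraries held 23839 barcodes. Nuclei were barcodes with 500 to 8000 genes and under 0.8% of their UMIs (unique molecular identifiers, 1 per captured molecule) from mitochondrial genes, 7161 in all and 1130 to 1734 per library, with a median of 6608 to 16367 UMIs per nucleus. A second set of 13537 barcodes had at least 5% mitochondrial UMIs, and the set ran from 123 in fed 3 to 4800 in fasted 1. These are called high-mitochondrial barcodes below. At most 22 barcodes were shared by any pair of libraries, and at most 1 among nuclei. Clusters built without the ribosomal protein genes gave 5570 inhibitory neuron-like nuclei in 15 clusters, of which 89.8% to 99.1% held a Gad1 or Gad2 UMI. The same clustering gave 486 astrocyte-like, 188 oligodendrocyte-like, 120 oligodendrocyte precursor-like (OPC), 89 microglia-like and 62 excitatory neuron-like nuclei, and the suffix is left out from here on. A Gad1 or Gad2 UMI was also found in 34.6% of astrocytes, 42.0% of oligodendrocytes and 45.0% of OPC. For microglia and excitatory neurons the values were 31.5% and 33.9%. In 2 clusters of 646 nuclei no name was given.

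Ribosomal protein genes were a small part of the nuclear RNA and a large part of the RNA in high-mitochondrial barcodes. Their share of all non-mitochondrial UMIs in nuclei was 0.205%, 0.128% and 0.143% in fed 1, fed 2 and fed 3, and 0.321% and 0.300% in fasted 1 and fasted 2. In high-mitochondrial barcodes of the same libraries the share was 19.0%, 14.5%, 12.3%, 17.9% and 13.7%. Within a library the share in high-mitochondrial barcodes was 45.6 (fasted 2) to 113 (fed 2) times that in nuclei. 468423 to 11682365 non-mitochondrial UMIs per library came from high-mitochondrial barcodes and 9746526 to 29633178 from nuclei. A nucleus held a median of 14 to 36 ribosomal protein UMIs, depending on the library, so single genes were read as sums over the nuclei of a class in each library. Levels are given as CPM, the UMIs of a gene in every 1000000 non-mitochondrial UMIs. The 3′ assay counts transcript ends, and the values were not divided by length.

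Gene by gene, 84 of the 85 members that passed the low-count filter were higher in high-mitochondrial barcodes than in nuclei at an adjusted p under 0.05 (edgeR's quasi-likelihood test with Benjamini-Hochberg adjustment, library as a block), and 1 was lower. Of all 14151 genes tested, 39.1% were higher and 40.9% lower. The median log2 fold change was 6.15 for the members and -0.07 for all genes. Rps29, a small-subunit protein with a zinc finger, stood at 10890, 7971, 7545, 9399 and 7335 CPM in the high-mitochondrial barcodes of fed 1, fed 2, fed 3, fasted 1 and fasted 2. In the nuclei of the same libraries it stood at 62.0, 20.9, 29.3, 108.0 and 108.4 CPM. The sets did not overlap, and the log2 fold change of Rps29 was 7.44 ± 0.38 (SE, n = 5 libraries, edgeR quasi-likelihood adjusted p = 1.51e-09), the largest among the members. It was followed by Rps28, Rplp1 and Rps21 at 7.27 each and by Rpl37, Rpl39, Rps3, Rps23, Rpl9 and Rpl35a at 7.05 to 7.16. Rplp1 encodes a protein of the ribosomal stalk, which binds elongation factors.

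The size of the difference varied between members. Rpl5, which with Rpl11 and 5S ribosomal RNA forms a particle that also binds Mdm2, stood at 305, 348, 209, 318 and 325 CPM in high-mitochondrial barcodes and at 27.9, 20.4, 22.1, 31.7 and 24.7 CPM in nuclei. Its log2 fold change was 3.73 ± 0.13 (edgeR quasi-likelihood test, n = 5 libraries), and that of Rpl6, another large-subunit gene, was 4.37 ± 0.15. The ratio of the level in high-mitochondrial barcodes to that in nuclei, taken as the median over libraries, was 10.9 for Rpl5, 16.8 for Rpl6, 101 for Rpl41 and 176 for Rps29. It lay between 9.46 and 17.0 over the libraries for Rpl5 and between 67.7 and 381 for Rps29. Over 46 large-subunit genes the median of these ratios was 72.5 (range 10.9 to 164), and over 32 small-subunit genes it was 99.2 (23.2 to 176). The length of the gene had no relation to the ratio in a description over 86 members, with a Spearman's rho of -0.01, the same libraries behind every point. The plot of ratios by gene shows the order.

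**Figure D1:**
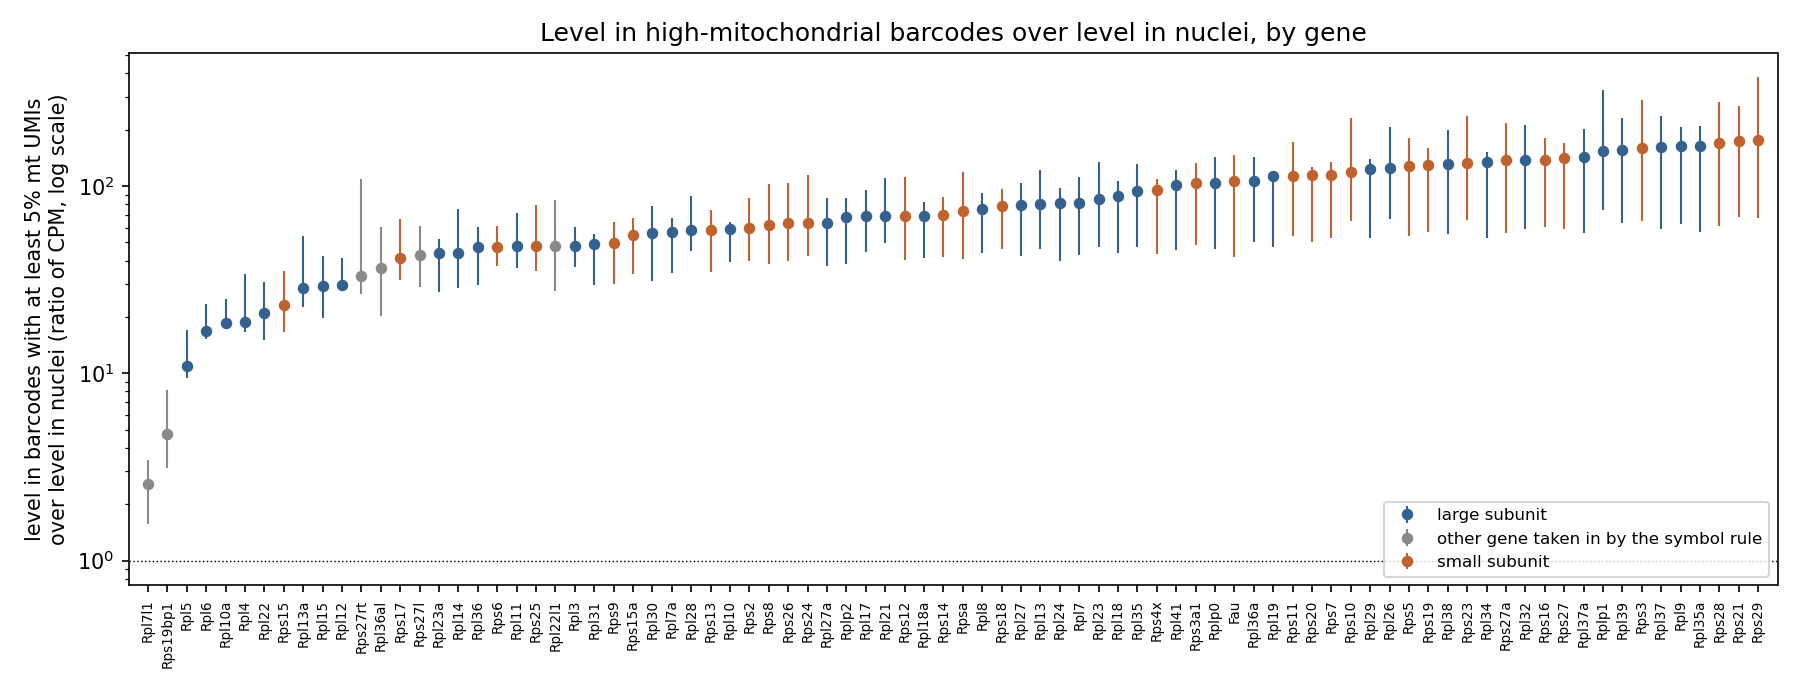
Ratio of each ribosomal protein gene's CPM in high-mitochondrial barcodes to its CPM in nuclei (log axis), for the 84 genes with UMIs in both sets in every library, in order of the ratio. Dots are the median and bars the lowest to highest of the 5 libraries. Rps29 sits at the top with 176 and Rpl5 is the lowest large-subunit gene with 10.9.

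Other genes of the ribosome and of translation, on lists counted whole, lay lower in the same comparison. Rack1 is a ribosomal protein that the symbol rule does not take in. It was higher in high-mitochondrial barcodes by 4.33 ± 0.15 on the log2 scale. All 6 elongation factors rose, with a median log2 fold change of 3.56, as did all 14 subunits of initiation factor eIF3, with a median of 1.93. Of 25 initiation factors 18 were higher and 4 lower. Of 77 mitochondrial ribosomal protein genes tested 68 were higher and 4 lower (median 2.13), and of 83 respiratory chain genes 82 were higher (median 4.74). Of 42 ribosome biogenesis genes, whose products work in the nucleolus, 14 were higher and 20 lower, with a median of -0.26.

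The 10 genes outside the subunit lists differed in the same contrast. Rpl7l1, a homologue of Rpl7, stood at 26.3, 16.9, 21.3, 29.9 and 26.5 CPM in high-mitochondrial barcodes and at 8.3, 10.7, 9.5, 8.6 and 10.4 CPM in nuclei, a log2 fold change of 1.60 ± 0.16. Rps19bp1, which binds the product of Rps19, was higher by 2.38 on that scale. Rpl22l1, Rpl36al, Rps27l and Rps27rt were higher by 5.73, 5.33, 5.42 and 5.39. Rpl3l, the muscle form of Rpl3, was the member that was lower, by -1.16 ± 0.41 (edgeR quasi-likelihood adjusted p = 0.0124, n = 5 libraries). It had 154 UMIs in nuclei and 18 in high-mitochondrial barcodes, while its parent Rpl3 had 3995 and 59153, and the call for Rpl3l was lost without fasted 1 and with nuclei under 0.2% mitochondrial UMIs. Rps23rg1 had 16 UMIs in nuclei and 0 in high-mitochondrial barcodes, which allows up to 0.112 CPM there for counting error. Rpl10l and Rpl39l had no UMI in either. Of 50-base windows along the Rps27rt transcript, 91.1% also occurred in Rps27, so its counts are uncertain. Rpl13a, Rpl36al and Rps10 overlap another gene of the files on the same strand, and 28 members overlap one on the other strand.

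Among inhibitory neurons, the genes with most UMIs were Rpl41, Rps24, Rpl6, Rps29 and Rpl13, and the 5 together held 14.7% of the ribosomal protein UMIs. Rpl41 encodes the smallest protein of the ribosome. It stood at 61.4, 39.2 and 44.8 CPM in fed 1, fed 2 and fed 3 and at 97.9 and 76.5 CPM in fasted 1 and fasted 2. The least detected members with UMIs in these neurons were Rps23rg1, Rps27rt and Rps27l, with means over the 5 libraries of 0.196, 0.901 and 1.26 CPM. Levels in inhibitory neurons and astrocytes ran in a similar order (Spearman's rho 0.906 over the members, a description, since both come from the same libraries). In high-mitochondrial barcodes the 5 leading genes were Rps29, Rpl41, Rpl37, Rplp1 and Rps21, with 19.4% of the ribosomal protein UMIs.

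Ribosomal protein genes took a larger share of UMIs in astrocytes than in inhibitory neurons of the same libraries. Their summed share was 0.275%, 0.210% and 0.209% in fed 1, fed 2 and fed 3 and 0.444% and 0.566% in fasted 1 and fasted 2, against 0.186%, 0.112%, 0.133%, 0.287% and 0.218% in inhibitory neurons. The share in astrocytes was above that in inhibitory neurons in each library. The median number of ribosomal protein UMIs per nucleus was lower in astrocytes, at 9, 6, 8, 12 and 22 against 15, 21, 19, 19 and 38 in the same order, beside a median of 2339 to 4597 UMIs of all genes per nucleus in astrocytes and 6828 to 18306 in inhibitory neurons. Mitochondrial genes also took a larger share in astrocytes, at 0.307%, 0.198%, 0.195%, 0.466% and 0.364% against 0.164%, 0.148%, 0.100%, 0.320% and 0.222%. Among nuclei under 0.1% mitochondrial UMIs the ribosomal protein share was 0.174%, 0.166% and 0.114% in astrocytes of fed 1, fed 2 and fed 3, against 0.152%, 0.108% and 0.123% in inhibitory neurons, so fed 3 was lower in astrocytes there. These astrocyte values under 0.1% rest on 8, 48 and 34 nuclei. From 0.4% to 0.8% the share in astrocytes was 0.358%, 0.184%, 0.545%, 0.489% and 0.572%, in the order fed 1, fed 2, fed 3, fasted 1, fasted 2. In inhibitory neurons of that bin it was 0.322%, 0.116%, 0.199%, 0.364% and 0.305%, so astrocytes were higher in each library there. The part of mitochondrial or free RNA in the class difference was not tested beyond these values. Of 84 members tested, 57 were higher in astrocytes, beside 20.8% of the 13009 genes tested, and none was lower. The median log2 fold change was 0.78, and -0.09 for all genes. The count was 21 without fasted 2 and 51 without nuclei in which ribosomal protein genes held at least 2% of the UMIs. Shares of all genes under these settings are not given, so the counts describe the members alone. The depth behind these values was 203210 to 872108 UMIs per library in astrocytes and 8678021 to 24904535 in inhibitory neurons.

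Rpl21, on chr5:146769699-146776408 of GRCm39 and spanning 6710 bases, stood out among the large-subunit genes. It was at 103, 140, 74.6, 194 and 165 CPM in astrocytes and at 35.2, 17.4, 29.6, 54.3 and 34.1 CPM in inhibitory neurons, in the order fed 1, fed 2, fed 3, fasted 1, fasted 2. The levels did not overlap between the classes, and the log2 fold change was 1.90 ± 0.21 (edgeR quasi-likelihood adjusted p = 8.3e-07, n = 5 libraries). It kept its call under all 15 alternatives, at 1.66 to 2.09. Rpl27 was higher in astrocytes by 1.55 ± 0.25 and the stalk base gene Rplp0 by 1.34 ± 0.30. Rpl36a, Rps7, Rps29, Rpl18, Rpl37 and Rpl7a followed at 1.23 to 1.32. Rpl3l was at 0, 4.6, 3.5, 14.9 and 9.2 CPM in astrocytes, with a log2 fold change of 1.87 ± 0.57 (edgeR quasi-likelihood adjusted p = 0.00929, n = 5 libraries) that lost its call without fasted 2 (adjusted p = 0.14). At the depth of the astrocyte sums these Rpl3l levels rest on few UMIs per library. Rpl6 stood at 59.1, 41.4, 55.5, 78.2 and 110 CPM in astrocytes, and its log2 fold change was 0.14 ± 0.18 (edgeR quasi-likelihood adjusted p = 0.56, n = 5 libraries).

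Other translation genes did not show the same counts in astrocytes. Of 76 mitochondrial ribosomal protein genes 2 were higher and 6 lower than in inhibitory neurons, and of 42 ribosome biogenesis genes 1 was higher and 17 lower. Of 6 elongation factors 1 was higher. Of 78 respiratory chain genes, 39 were higher and none lower.

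In OPC, 11 of 83 members were higher than in inhibitory neurons, beside 13.4% of all 12614 genes tested, with a median log2 fold change of 0.43 against -0.17 for all genes. The count was near the share of all genes, so it shows nothing particular to the members, and the calls describe single genes. Rpl13, on chr8:123829069-123831992 of GRCm39, led them. It stood at 164, 159, 151, 120 and 161 CPM in OPC, from 149 UMIs in all, with a mean of 45.4 ± 20.5 CPM (SD, n = 5 libraries) in inhibitory neurons. The OPC levels lay close together and above those in inhibitory neurons, and the log2 fold change was 1.77 ± 0.21 (edgeR quasi-likelihood adjusted p = 2.15e-16, n = 5 libraries), called under all 16 alternatives at 1.58 to 2.03. The 10 other calls, Rpl37a, Rps9, Rps28, Rpl37, Rpl35a, Rps27, Rps23, Rps20, Rps29 and Rplp1, lay between 0.73 and 1.09. Rpl13 was the member still higher when nuclei with at least 2% ribosomal protein UMIs were left out, and without fasted 2 the count was 1 higher and 1 lower. Shares of all genes under these settings are not given.

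In oligodendrocytes 6 of 82 members were higher and 1 was lower than in inhibitory neurons, beside 11.3% and 20.6% of all 12494 genes. Both counts were below these shares of all genes, so the calls describe single genes. Rpl32 stood at 31.8, 24.7, 32.5, 56.4 and 59.7 CPM in oligodendrocytes, with a mean of 14.6 ± 8.4 CPM (SD, n = 5 libraries) in inhibitory neurons and a log2 fold change of 1.40 ± 0.38. Rps16, Rps10, Rpl37a, Rpl21 and Rpsa followed at 0.73 to 1.32. Rpl15 was lower, at 15.9, 4.9, 4.6, 28.2 and 18.8 CPM with a log2 fold change of -1.19 ± 0.49 (edgeR quasi-likelihood adjusted p = 0.0471, n = 5 libraries), and was called under 5 of 16 alternatives. The median of all genes was -0.28 here and moved to -0.03 with library totals alone in place of TMM normalization. The count of members was then 18 higher and none lower. Because the median of all genes moved up too and their share called is not given, this count describes the members alone. The plot of class levels sets astrocytes and OPC against inhibitory neurons.

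**Figure D2:**
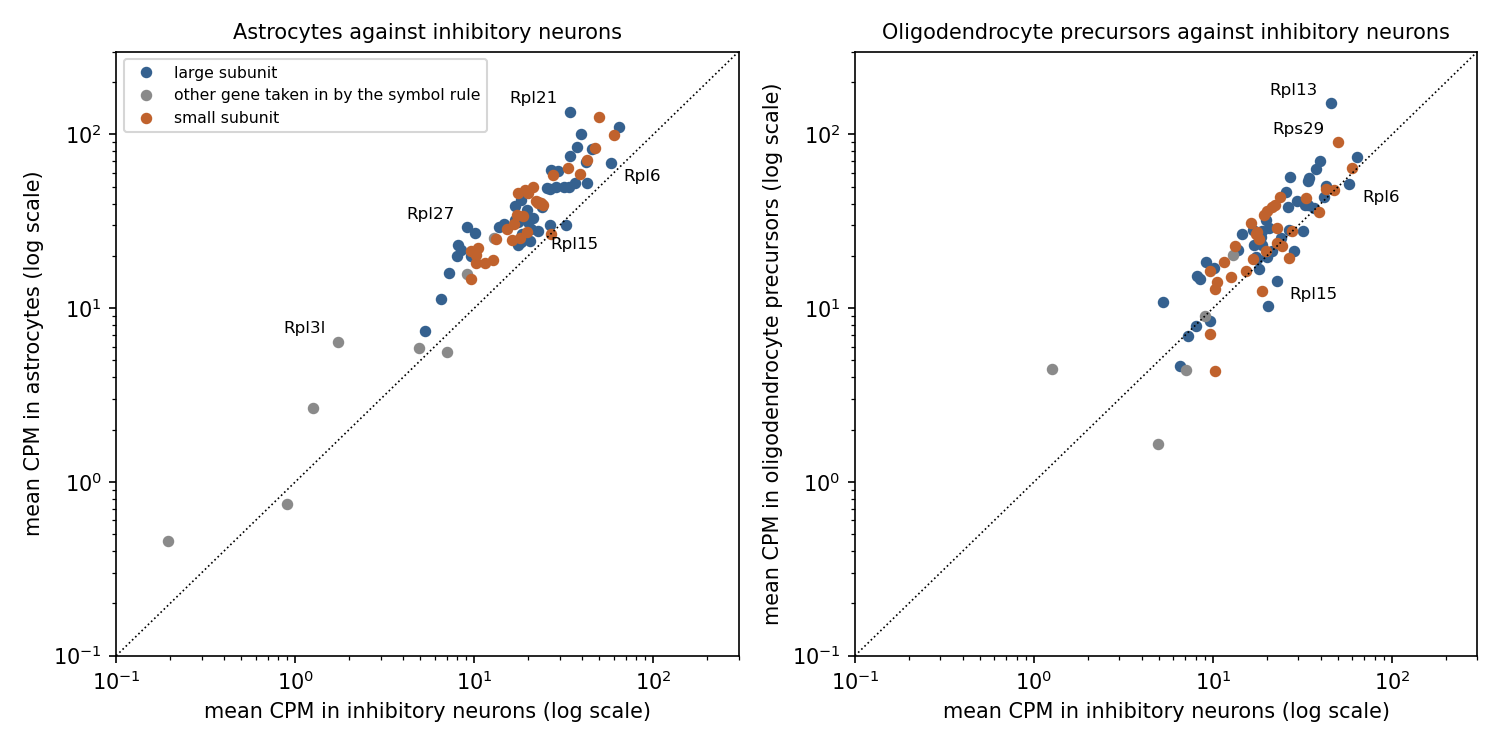
Mean CPM over the 5 libraries of each ribosomal protein gene in astrocytes (left) and OPC (right) against inhibitory neurons, both axes logarithmic, with equality as a dotted line. Rpl21 lies farthest above the line in astrocytes among well detected genes, and Rpl13 in OPC.

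Microglia and excitatory neurons were too few for a test, with at least 1 library under 10 nuclei, and their values are a description. The share in microglia was 2.90%, 1.83% and 0.873% in fed 1, fed 2 and fed 3 and 4.27% and 1.85% in fasted 1 and fasted 2, above every other named class in each library. In 33 of the 89 microglia, members held at least 2% of the UMIs, compared with 72 of all 7161 nuclei. Rps29 in microglia stood at 1552, 836, 489, 2114 and 920 CPM, so fed and fasted libraries overlapped. Excitatory neurons had shares of 0.120%, 0.102%, 0.111%, 0.222% and 0.166%. One of the unnamed clusters, of 310 nuclei with a median of 1881 UMIs and with Rps29 and Rpl35a among its leading genes, ran from 0.335% in fasted 1 to 4.19% in fasted 2.

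**Figure D3:**
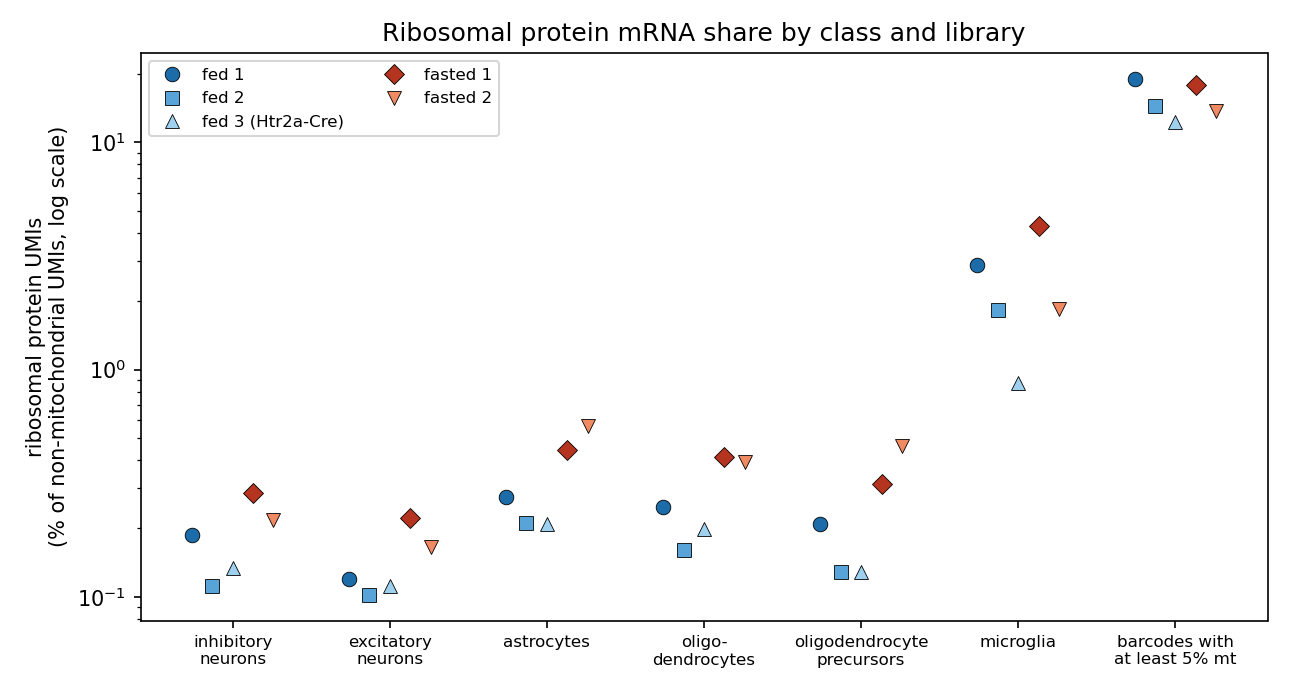
Share of non-mitochondrial UMIs from ribosomal protein genes (percent, log axis) in each class and in high-mitochondrial barcodes, 1 point per library. Both fasted libraries lie above the 3 fed libraries in inhibitory neurons, astrocytes, oligodendrocytes, OPC and excitatory neurons, and the groups overlap in microglia and in high-mitochondrial barcodes.

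The design sets fasted against fed mice. In nuclei the ribosomal protein share was higher in both fasted libraries than in all 3 fed libraries. In inhibitory neurons it was 0.144% ± 0.038 (SD, n = 3) in the fed and 0.253% ± 0.049 (n = 2) in the fasted libraries, a ratio of 1.76 with an exact permutation p = 0.1, two-sided, the smallest that 3 against 2 libraries allow in 10 arrangements. The ratio was 1.99 in oligodendrocytes, 2.18 in astrocytes and 2.50 in OPC, each with exact p = 0.1. In OPC it was 1.90 with doublets removed (exact permutation p = 0.2). With clusters from log normalization it was 1.53 in OPC (exact permutation p = 0.4) and 1.75 in inhibitory neurons (exact permutation p = 0.2). In microglia it was 1.64 with overlapping libraries (exact p = 0.4). Within batches, fasted 1 over fed 1 was 1.54 and fasted 2 over fed 2 was 1.95 in inhibitory neurons. The same ratios were 1.61 and 2.69 in astrocytes, 1.67 and 2.43 in oligodendrocytes and 1.51 and 3.57 in OPC.

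Single nuclei carried part of the glial values. In fasted 2, 1 astrocyte with 10.7% ribosomal protein UMIs held 23.3% of the library's astrocyte ribosomal protein UMIs, and 1 OPC with 4.29% held 42.2% of the OPC value. With nuclei at or above 2% left out, the ratio was 1.91 in both astrocytes and OPC. The median nucleus gave the same order of groups in astrocytes, with 0.295%, 0.165% and 0.159% in the fed and 0.443% and 0.485% in the fasted libraries, and in inhibitory neurons, with 0.173%, 0.108% and 0.128% against 0.280% and 0.213%.

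The difference ran through the inhibitory neurons. Fasted libraries lay above fed libraries without overlap in 13 of 15 clusters, among them those led by Prkcd, Glra1, Vipr2 and Vdr, with a ratio of 1.67 to 2.43. The Moxd1-led and Gbx1-led clusters were the exceptions, in each of which fed 1 reached above a fasted library, at ratios of 1.76 and 1.80. The highest ratio was that of the Chat-led cluster, of 23 nuclei with 3 to 6 per library. Fasted was above fed within both batches in all 15 clusters, at 1.30 to 2.63 in the first batch and 1.71 to 2.51 in the second. The value of 2.63 was also that of the Chat-led cluster. All 15 clusters come from the same 5 libraries, so they are not independent of each other.

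Gene by gene, no member of 85 tested in inhibitory neurons reached an adjusted p under 0.05 by edgeR's quasi-likelihood test. Among all 13424 genes tested 1 was called higher, a share of 0.00745%. That gene was Ptgds, named after its value was seen. At an unadjusted p under 0.05 there were 65 of 85 members, beside 5.47% of all genes in both directions, and 82 of 85 had a positive log2 fold change. The median was 0.85 for the members and -0.01 for all genes. Fasted libraries lay above fed libraries without overlap for 66 of the 88 members, beside 11.0% of all genes tested, and were higher within both batches for 82 of 85, beside 32.0%. With the preparation batch as a block, 64 members were higher, beside 2.55% of 13880 genes, and 65 when fed 3 was left out as well, with no share given for the latter. That fit has 1 residual degree of freedom, and fed 3 carries no information on feeding in it. Its p-values in these neurons rest almost wholly on an estimate of spread shared over genes, not on the spread between the pairs of libraries. Other tests on the same sums called 35 members (edgeR likelihood ratio test, 0.961% of all genes) and 21 (DESeq2, 0.484%).

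Large-subunit genes moved much as small-subunit genes did, with medians of 0.82 and 0.91. Rps16, a small-subunit gene, stood at 8.4, 5.8 and 6.4 CPM in fed and at 18.3 and 13.6 CPM in fasted libraries. The groups did not overlap, and the log2 fold change was 1.20 ± 0.23 (edgeR quasi-likelihood adjusted p = 0.293, n = 3 and 2), or 1.15 ± 0.18 with the batch as a block (adjusted p = 4.45e-08). Rpl30 stood at 36.4, 35.7 and 30.3 CPM in fed and 56.3 and 54.9 CPM in fasted libraries, 0.69 ± 0.13 (edgeR quasi-likelihood adjusted p = 0.293), or 0.60 with the block (adjusted p = 1.37e-06). Rps26, the stalk gene Rplp2 and Rpl27 had values of 0.89 ± 0.17, 0.82 ± 0.16 and 0.95 ± 0.19 with edgeR quasi-likelihood adjusted p = 0.293 to 0.296, and of 0.89, 0.74 and 0.96 with the block (adjusted p = 1.62e-07, 9.17e-05 and 3.45e-05). These 5 had the smallest p-values among the members.

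The genes taken as examples differed in size. Fau, which encodes a ubiquitin-like protein fused to the small-subunit protein eS30, stood at 24.2, 12.0 and 15.4 CPM in fed and 51.2 and 34.7 CPM in fasted libraries, with a log2 fold change of 1.32 ± 0.29 (edgeR quasi-likelihood adjusted p = 0.363) and 1.28 with the block (adjusted p = 7.51e-20). Rpl41, given above, differed by 0.84 ± 0.21 (edgeR quasi-likelihood adjusted p = 0.414), or 0.80 with the block (adjusted p = 1.97e-15). Rplp0 stood at 7.7, 3.5 and 5.7 CPM in fed and 13.5 and 10.0 CPM in fasted libraries, 1.06 ± 0.31. Rps6, whose protein is phosphorylated downstream of TOR, stood at 10.8, 8.0 and 7.0 CPM against 13.1 and 12.2 CPM, 0.55 ± 0.22, and had an adjusted p = 0.785 in the edgeR quasi-likelihood test and 0.21 with the block. Rps4x on the X chromosome stood at 12.0, 7.1 and 7.9 CPM against 24.4 and 15.1 CPM, 1.13 ± 0.29. With the block Rplp0 and Rps4x differed by 1.14 and 1.04 (edgeR quasi-likelihood adjusted p = 1.9e-06 and 9.85e-08). In these examples each fasted library was above each fed library.

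In Rps24 and Rpsa fed 1 was above fasted 2, while fasted was above fed within both batches. Rps24 stood at 65.9, 29.7 and 48.8 CPM in fed and 94.8 and 61.3 CPM in fasted libraries, with a log2 fold change of 0.69 ± 0.31. Rpsa, the laminin receptor that also sits in the small subunit, stood at 52.0, 19.5 and 35.3 CPM against 86.6 and 43.9 CPM, 0.87 ± 0.40 (both edgeR quasi-likelihood adjusted p = 0.93). Rpl3, at the peptidyl transferase centre, stood at 39.5, 28.2 and 34.4 CPM against 67.1 and 40.4 CPM, 0.65 ± 0.24. For Rpl3 each fasted library was above each fed library, with fed 1 and fasted 2 next to each other. With the block Rps24, Rpsa and Rpl3 differed by 0.76, 0.92 and 0.61 (edgeR quasi-likelihood adjusted p = 3.56e-13, 3.19e-16 and 1.14e-06). Fasted 1 was the highest library for 75 of 86 members in inhibitory neurons, and fed 2 the lowest for 66.

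A few members showed little difference. Rpl6 stood at 59.1, 42.5 and 62.2 CPM in fed and 70.9 and 54.2 CPM in fasted libraries, 0.18 ± 0.20 on the log2 scale, and Rpl5 at 26.6, 18.7 and 21.7 against 29.3 and 22.8 CPM, 0.21 ± 0.20. Negative values were found for Rpl13a (-0.09 ± 0.25), Rpl7l1 (-0.17 ± 0.21) and Rpl3l (-0.21 ± 0.52). Rpl7l1 stood at 7.8, 11.0 and 9.4 CPM in fed and 7.4 and 9.7 CPM in fasted libraries. Of the other genes outside the subunit lists, Rpl22l1 (0.67), Rpl36al (0.51), Rps19bp1 (0.55), Rps27l (0.71) and Rps27rt (1.61) had positive log2 fold changes, none of them called.

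**Figure D4:**
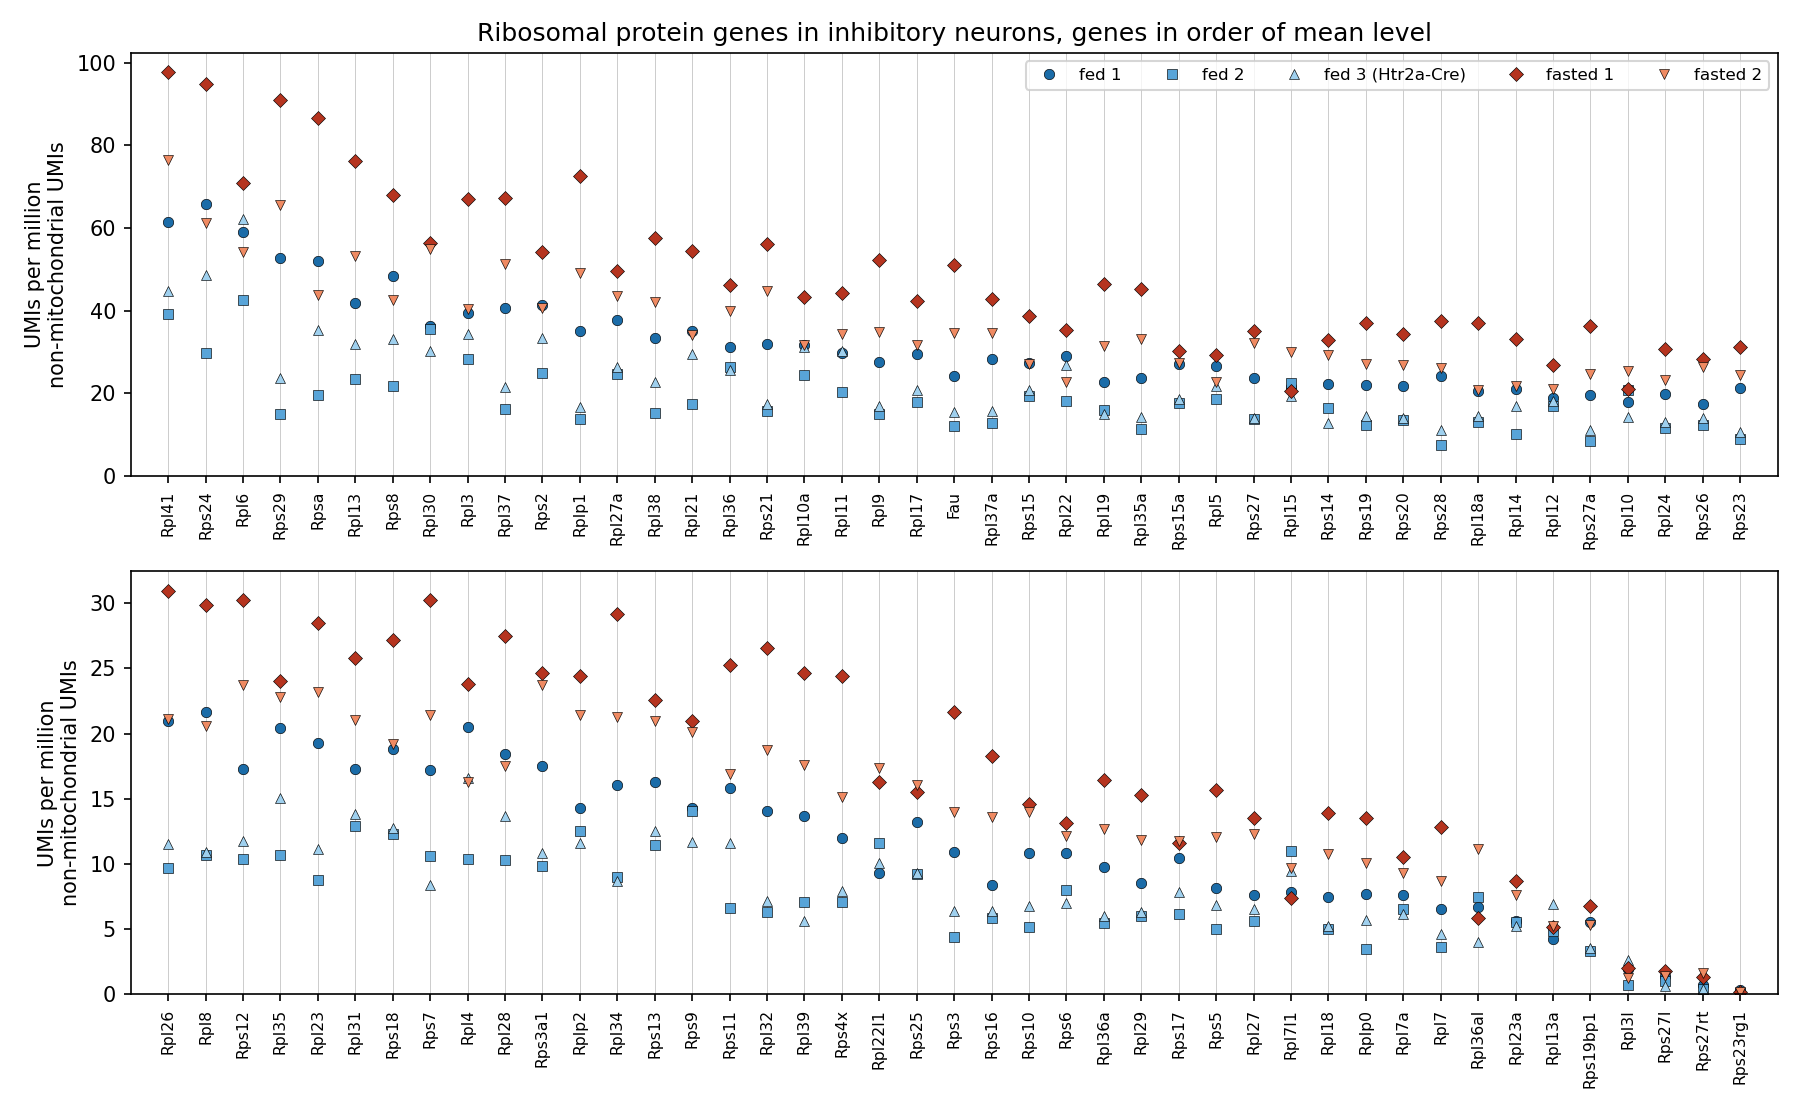
CPM of the 86 ribosomal protein genes with UMIs in inhibitory neurons (linear axes from 0, the lower panel on a smaller scale), 1 point per library, genes in order of their mean. The fasted points lie above the fed points for 66 of the 88 members, with Rpl6, Rpl5 and Rpl7l1 among the genes where they mix.

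Members that were most raised in high-mitochondrial barcodes over nuclei also had the larger fasting values. The 7 members with a ratio under 20 had a median fasting log2 fold change of 0.21 in inhibitory neurons, the 19 with a ratio of 20 to 50 one of 0.55, the 28 with 50 to 100 one of 0.76, and the 31 at 100 or more one of 1.11. The group under 20 takes in Rpl3l (-0.21), Rpl7l1 (-0.17) and Rps19bp1 (0.55) from outside the subunit lists. Its subunit genes Rpl5, Rpl6, Rpl10a and Rpl4 had 0.21, 0.18, 0.35 and 0.33. In astrocytes the medians were 0.50, 1.02, 1.09 and 1.38, over the 4, 10, 25 and 29 members of these groups that passed the low-count filter there. The 4 were these subunit genes, so the low end rests on few genes. Both measures use the nuclei of the same libraries, so these are side-by-side values with no test.

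Mitochondrial RNA moved with feeding state too. In inhibitory neurons mitochondrial genes held 0.164%, 0.148% and 0.100% of UMIs in fed and 0.320% and 0.222% in fasted libraries, a ratio of 1.97, and 1.95 and 1.50 within the batches. Among inhibitory nuclei, 44.1%, 59.1% and 69.3% of the fed and 3.63% and 25.6% of the fasted libraries had under 0.1% mitochondrial UMIs. When nuclei were sorted by mitochondrial share, the ribosomal protein share still differed within the bins. Under 0.1% it was 0.152%, 0.108% and 0.123% in fed and 0.195% and 0.165% in fasted libraries. From 0.2% to 0.4% it was 0.219%, 0.110% and 0.168% against 0.275% and 0.250%. From 0.4% to 0.8% fed 1, at 0.322%, was above fasted 2, at 0.305%, while fasted remained above fed within both batches. With nuclei under 0.2% mitochondrial UMIs the ratio in inhibitory neurons was 1.53 (exact p = 0.2), and from 0.1% to 0.4% it was 1.57 (exact p = 0.2). In astrocytes the bins hold few nuclei. From 0.2% to 0.4%, with 13 to 44 nuclei per library, the share was 0.296%, 0.174% and 0.185% in fed and 0.385% and 0.859% in fasted libraries, without overlap. From 0.4% to 0.8% it was 0.358%, 0.184% and 0.545% against 0.489% and 0.572%, so fed 3 was above fasted 1, while fasted was above fed within both batches. From 0.1% to 0.2% fed 2, at 0.385% over 11 nuclei, was above fasted 2, at 0.357% over 19. The bins of fasted 2 keep the single astrocyte described above that held a large part of that library's ribosomal protein UMIs. The bin it fell in and the shares without it are not given, so the fasted 2 values in astrocytes may rest on it in part. The part of free or cytoplasmic RNA in the fasting difference was not tested beyond these values.

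**Figure D5:**
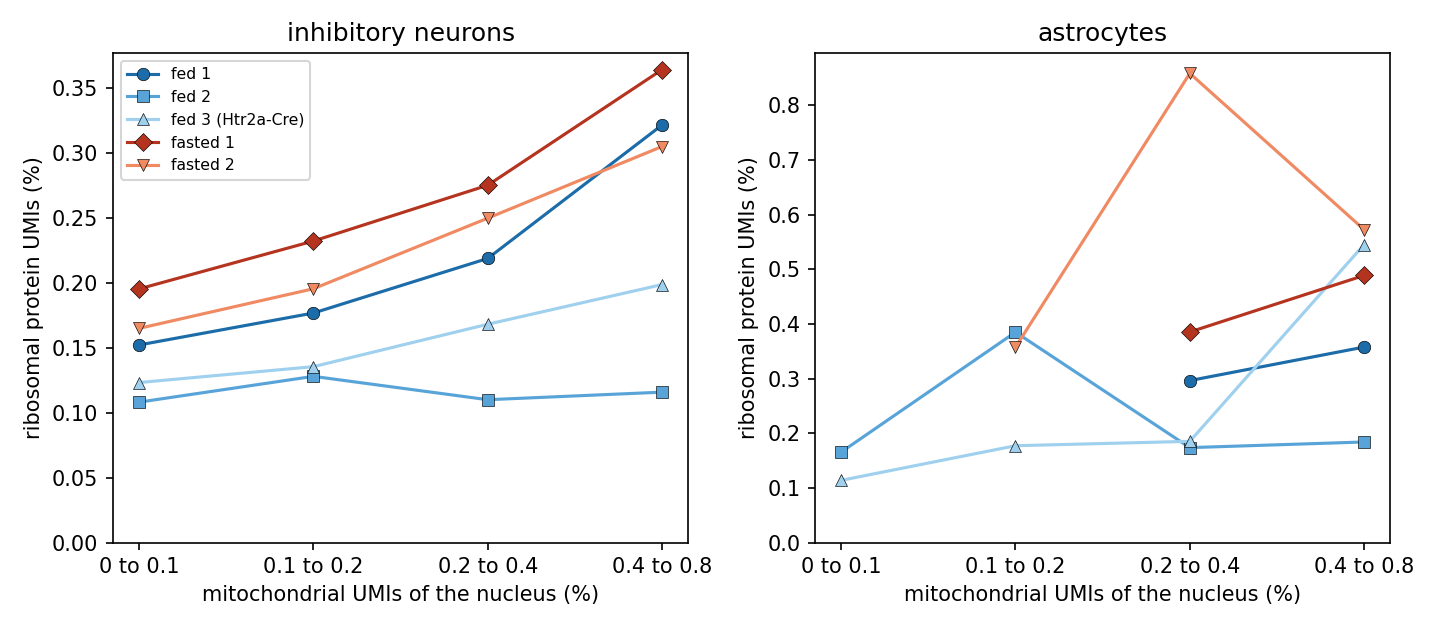
Ribosomal protein share of UMIs (percent) in inhibitory neurons (left) and astrocytes (right) sorted into bins of mitochondrial share (percent of UMIs), 1 line per library, for bins with at least 10 nuclei. In inhibitory neurons the share is higher in bins of higher mitochondrial share in fed 1, fed 3, fasted 1 and fasted 2, and both fasted libraries lie above the fed libraries in the first 3 bins, while in astrocytes fed 2 (0.1% to 0.2%) and fed 3 (0.4% to 0.8%) reach above a fasted library.

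Glial markers in inhibitory neurons mostly had positive fasting log2 fold changes, though the summed shares of astrocyte and OPC markers overlapped between fed and fasted libraries. All 8 oligodendrocyte markers had positive fasting log2 fold changes (6 at an unadjusted p under 0.05, none called, median 1.18), and their summed share was 0.0138% to 0.0174% in fed and 0.0213% to 0.0243% in fasted libraries. Of 7 astrocyte markers tested 6 were positive (median 0.22), with a summed share of 0.0200% to 0.0232% and 0.0228% to 0.0296%. Of 7 microglia markers tested all 7 were positive, with a median of 1.13, and the summed share of the 8 on the list was 0.00141% to 0.00193% and 0.00231% to 0.00263%. Of 7 OPC markers 6 were positive, with a median of 1.13, and their summed share was 0.00210% to 0.00264% in fed and 0.00245% to 0.00275% in fasted libraries. No marker of these 4 lists was at 0 in all libraries, and Tmem119 of microglia was at 0 in at least 1. The part of RNA from other cells in the fasting difference was not tested.

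Other lists gave smaller values in the same test in inhibitory neurons, with no gene of theirs called. The 6 elongation factors were all positive with a median log2 fold change of 0.25, led by Eef1b2 (0.80 ± 0.16, edgeR quasi-likelihood adjusted p = 0.301, n = 3 and 2). Of 13 eIF3 subunits 8 were positive (median 0.01), of 25 initiation factors 16 (median 0.04), of 42 ribosome biogenesis genes 18 (median -0.03), of 20 regulators of the TOR pathway 12 (median 0.01) and of 77 mitochondrial ribosomal protein genes 42 (median 0.01). Of 78 respiratory chain genes 72 were positive (median 0.31), and of 25 neuronal transcripts known to be abundant in cytoplasm 23 were positive (median 0.35). Other transcripts with a TOP motif had a median of 0.20 over 8 genes, 6 of them positive.

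In astrocytes 68 members passed the low-count filter and none was called, where 0.0285% of 7024 genes were called higher. There were 53 members at an unadjusted p under 0.05, beside 3.99% of genes, and 67 of 68 were positive with a median log2 fold change of 1.18. Fasted libraries lay above fed without overlap for 57 of all 88 members, or 50 of the 68, beside 9.71% of genes, and were higher in both batches for 56 of 68, beside 24.9%. Rplp1 stood at 44.3, 43.7 and 39.9 CPM in fed and 142 and 151 CPM in fasted libraries, 1.78 ± 0.29 (edgeR quasi-likelihood adjusted p = 0.102). Rps24 had 68.9, 34.5 and 53.8 CPM against 164 and 175 CPM, 1.75 ± 0.31 (edgeR quasi-likelihood adjusted p = 0.102). In both genes the fasted libraries were well apart from the fed ones. With the block, 7 of 78 members were higher in edgeR's quasi-likelihood test, beside 0.213% of genes, and Rps24, Rplp1, Rps27a and Fau were among them. The likelihood ratio test called 11 members and DESeq2 0, with the share of all genes not given here. Without fasted 2, 21 members had an unadjusted p under 0.05, also with no share of all genes given. The order of libraries differed from that in inhibitory neurons: fasted 2 was the highest for 61 of 86 members.

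In oligodendrocytes 23 members passed the filter, all 23 were positive and none was called, nor was any of the 4433 genes (0.0% higher). There were 9 at an unadjusted p under 0.05, beside 2.5% of genes. The likelihood ratio test called 1 and DESeq2 0, with the share of all genes not given. Fasted libraries lay above fed for 16 of the 23 without overlap, beside 8.82%, and within both batches for 19, beside 31.9%. Rplp1 stood at 31.8, 19.8 and 23.2 CPM in fed and 141 and 122.5 CPM in fasted libraries, 2.42 ± 0.50. With the block, 3 of 46 members were higher, beside 1.7% of genes: Rplp1, Rps24 and Rps29. A member enters such sparse sums mostly through libraries where it is high, so the counts over tested members describe those genes alone.

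In OPC 19 of the 88 members passed the low-count filter. Members entered these sparse sums mostly through libraries where they were high, so counts over the 19 describe those genes and support no direction for the members. Of the 19, 4 were higher, beside 0.359% of 3623 genes. Rps29 stood at 30.8, 11.3 and 43.7 CPM in fed and 175 and 190 CPM in fasted libraries, with a log2 fold change of 2.63 ± 0.44 (edgeR quasi-likelihood adjusted p = 0.00228, n = 3 and 2). Rpl37 stood at 30.8, 34.0 and 24.3 against 73.6 and 187 CPM (2.27 ± 0.46), Rps20 at 0, 11.3 and 4.9 against 82.7 and 97.4 CPM (3.74 ± 0.77), and Rpl37a at 30.8, 5.7 and 34.0 against 82.7 and 132 CPM (2.28 ± 0.52). These rested on 15 to 42 nuclei per library. No member was called without fasted 2, without fed 2, with DESeq2, or with nuclei at or above 2% ribosomal protein UMIs left out. With the block 3 of 33 were higher, beside 0.329%. There were 15 of 19 at an unadjusted p under 0.05, beside 6.87%, 13 without overlap, beside 10.8%, and 14 higher in both batches, beside 25.3%. Rpl13, the gene of highest level in OPC, differed by -0.12 ± 0.32.

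The fasting difference was not shown to differ between classes. Against inhibitory neurons, 0 members had a called interaction in astrocytes, oligodendrocytes or OPC by edgeR's quasi-likelihood test, beside 0.00769%, 0.0% and 0.0317% of genes higher. At an unadjusted p under 0.05 there were 5 of 84, 0 of 82 and 10 of 83 members, beside 3.54%, 2.84% and 4.41% of genes. The likelihood ratio test called 0, 0 and 1 member and DESeq2 none, with the share of all genes not given. Their median interactions were 0.32, 0.16 and 0.77 on the log2 scale.

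In high-mitochondrial barcodes the fed and fasted libraries overlapped. The ratio of fasted to fed shares was 1.03 (exact p = 0.9), and 0.940 and 0.945 within the batches. No member of 84 was called by edgeR's quasi-likelihood test, beside 0.0483% of 12434 genes higher, and 0 had an unadjusted p under 0.05, beside 3.79%. The likelihood ratio test and DESeq2 also called 0. Fasted lay above fed without overlap for 1 member, beside 7.58%, and was higher in both batches for 5 of 84, beside 32.3%, while 57 were lower in both. The median log2 fold change was 0.08 and turned to -0.09 with the block and without fed 3, which was the lowest library for 73 of 85 members. Without fed 1 it was 0.31, and without fasted 1 it was -0.16.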

How the data were processed

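Nuclei of the CeA were profiled with the 10x Chromium 3′ v3.1 kit in 5 libraries. The deposited matrices hold raw UMI counts per gene and barcode, made by the authors from all reads in genes, introns included. The study's methods name Cell Ranger 5.0.0 and GRCm39 with Ensembl 105, with Cre and mCherry added, while the submitters' processing notes name Cell Ranger 2.1.1 and mm10. Gene positions are from GENCODE vM39 (GRCm39), and promoter sequences from RefSeq (GRCm38.p6). The bounds on genes and mitochondrial share for nuclei follow the study.

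The members and the gene lists were chosen with earlier results of these data known. Nuclei were clustered in Seurat 5.3.0 (SCTransform, sctransform 0.4.2, 2000 variable genes, 30 components, 20 neighbours, resolution 0.5) without ribosomal protein, mitochondrial, Cre and mCherry genes. To be named, a cluster needed 3 detected markers of a class, an average marker log2 difference from the other clusters of 1 or more and a lead of 0.5 over the next class, or when over 50% of its nuclei held Gad1 or Gad2 UMIs and no other class led. Scrublet as run in scanpy 1.11.5 called 70 doublets (0.978%), under 0.5% of nuclei in fasted 1. They were kept, and left out as an alternative. UMI counts were summed per class and library, mitochondrial genes left out, and tested with edgeR 4.0.16 (filterByExpr, TMM, glmQLFit robust, glmQLFTest) with Benjamini-Hochberg adjustment over all genes tested and a threshold of 0.05. A class entered where every library had at least 10 nuclei. The SE of an edgeR log2 fold change is its absolute value divided by the square root of the test's F statistic. Shares were compared by an exact permutation test over libraries (Python 3.11.15, numpy 2.4.6), and Spearman's rho was taken with scipy 1.17.1. Fits were tested on simulated data in R 4.3.3. The alternatives were edgeR's likelihood ratio test, DESeq2 1.42.0, RLE factors, library totals alone, no filter, other bounds on nuclei, other clusterings, the replicate block and leaving out each library.

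The study's supplement pairs its own fed and fasted datasets by number in preparation batches, and the replicate numbers here are taken to be the same. The sample titles name no batch. The deviations from group means of fed 1 and fasted 1 had a Pearson's r of 0.409 over genes in inhibitory neurons, and those of fed 2 and fasted 2 an r of 0.626. Fed 3 and fasted 1, of different numbers, had an r of 0.333 in inhibitory neurons. In astrocytes the values of the same pairs of equal number were 0.114 and -0.101, below the 0.217 of fed 3 and fasted 2. The pairing was not tested beyond these values. With 2 fasted libraries, their deviations mirror each other.

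Named genes were, in each test, the 10 called members of largest log2 fold change (or all called members and those of smallest p up to 5), the 5 members of highest and the 3 of lowest level in inhibitory neurons, all members outside the subunit lists, and 8 examples (Rpl3, Rplp0, Rpl41, Rps6, Rps4x, Rps24, Rpsa, Fau). Rpl5, Rpl6, Rpl15 and Rpl13a were also named after their values were seen. Libraries pool animals, so p-values refer to 5 pools and not to single animals. edgeR shares its estimate of spread over genes, so a small p-value does not rest on the spread of that gene alone. The block leaves 1 residual degree of freedom, so its small p-values rest almost wholly on the shared estimate. They do not measure how well the pairs of libraries repeat each other. Intervals and floors cover counting error only, and a floor is 3 UMIs.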

Additional observations from a re-analysis of the deposited data

Results flagged for a closer look

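Within both batches the ratio of fasted to fed shares was above 1 in nuclei and below 1 in high-mitochondrial barcodes. The ribosomal protein share in all nuclei was 1.567 times as high in fasted 1 as in fed 1 and 2.334 times as high in fasted 2 as in fed 2. In high-mitochondrial barcodes the ratios were 0.94 and 0.945. Over all libraries the ratio there was 1.03 with fed and fasted libraries overlapping (exact permutation p = 0.9), and its direction turned with the library left out. The difference between the sets was not tested.

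Another 3141 barcodes belonged to neither group, with a mitochondrial share between the bounds or a gene number outside them. Their ribosomal protein share was 1.561% in fed 1, 0.452% in fed 2, 0.801% in fed 3, 1.319% in fasted 1 and 2.132% in fasted 2, above the share in nuclei and below that in high-mitochondrial barcodes in every library.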

How the results depend on the processing

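The number of members called between feeding states changed with the test, the filter, the block and the libraries left out. In inhibitory neurons the count of 0 became 35 with the likelihood ratio test, 21 with DESeq2, 2 with no filter, 64 with the preparation batch as replicate block and 65 with the block without fed 3. In astrocytes 0 became 11 with the likelihood ratio test, 14 with no filter, 7 with the block and 3 in nuclei with 0.1% to 0.4% mitochondrial UMIs (0 to 1 when each library was left out). In oligodendrocytes it became 1 with the likelihood ratio test and 3 with the block. In OPC the count of 4 became 7 with the likelihood ratio test and with no filter, 1 with doublets removed, and 0 with DESeq2, log normalization, nuclei under 2% ribosomal protein or the block without fed 3 (0 to 9 when each library was left out, with 0 without fed 2 or fasted 2 and 9 without fasted 1). The block, whose fit rests on 1 residual degree of freedom, left the 0 calls in high-mitochondrial barcodes as they were. The cause of these changes was not tested. Counts here and in the next paragraph with no share of all genes in the results describe the members alone.

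Between classes, leaving out each library gave 21 (without fasted 2) to 60 members in astrocytes, 3 (without fed 2 or fasted 2) to 10 in oligodendrocytes and 2 (without fasted 2) to 13 in OPC. In oligodendrocytes the count of 7 became 12 with RLE factors and 18 with library totals alone. In OPC the count of 11 became 2 with DESeq2 or doublets removed, 1 with nuclei under 2% ribosomal protein and 36 with log normalization. The interaction in OPC went from 0 to 1 with the likelihood ratio test.

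In high-mitochondrial barcodes fasting values turned with the library left out. Rps27rt was -0.014 with the replicate block, -0.016 with the block without fed 3 and -0.011 to 0.326 when each library was left out. Rplp0 ran from -0.157 to 0.472 and Rpl10a from -0.073 to 0.419, both negative without fasted 1. The summed share differed by -1.6011 (without fasted 1) to 2.6262 (without fasted 2) percentage points, and by -0.9657 without fed 3. Rps20 in OPC against inhibitory neurons ran from -0.061 (without fasted 2) to 1.065. With log normalization the OPC interactions of Rpl35 and Rps29 were -0.035 and -0.445. Over 1731 pairs of a named member and a setting, 1543 kept direction and side of the threshold, 112 lost the call, 68 gained it and 8 turned. Of the summed results, 232 settings moved no count by over 1.5 times and turned no share, while 35 moved one and 2 turned the share in high-mitochondrial barcodes.

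Log normalization gave no astrocyte class, the bound of 0.2% left values in inhibitory neurons and all nuclei alone, and the window of 0.1% to 0.4% left none in oligodendrocytes and OPC. OPC and oligodendrocytes rest on at least 15 and 21 nuclei per library, so differences in most of their members were not detectable at this depth.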
